A study of Homo sapiens with 4 samples.

Results

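Metallothioneins and the genes that sense and export zinc were followed in T24 cells, an established human bladder cancer line, after knockdown of the RNA methyltransferase NSUN2. The 8 genes MT1E, MT1F, MT1G, MT1M, MT1X, MT2A, MTF1 and SLC30A1 were taken by symbol, through their Ensembl identifiers, from a table of 62893 genes, and a row was found for 8 of 8. Poly(A) RNA of cells given control siRNA (siControl, 2 libraries) was compared with that of cells given siRNA against NSUN2 (siNSUN2, 2 libraries). All libraries came from the same line, and the siRNA sequences and the time after transfection were not known here. No label names a metal treatment. The labels do not say whether replicates were separate cultures, so the spread behind each p-value, that between these 4 libraries, may be technical. In bulk RNA, fewer cells that carry a transcript and less of it per cell cannot be told apart.

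Metallothioneins are small, cysteine-rich proteins that bind zinc and copper and buffer them in the cytosol. MTF1 is a transcription factor whose zinc fingers sense free zinc. When zinc rises, it binds metal response elements in the promoters of the metallothioneins and of SLC30A1, which encodes the zinc exporter ZnT1 of the plasma membrane. Metallothionein genes are also known to respond to glucocorticoids and to oxidative stress.

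The libraries held between 33633249 and 215936965 counts. Levels are given as CPM, counts in proportion to library sizes scaled by TMM factors, and 1 CPM stood for 34.2 to 213 counts. NSUN2 (ENSG00000037474) stood at 281 and 284 CPM in the siControl libraries and at 29.6 and 30.1 CPM in the siNSUN2 libraries (log2 fold change −3.24, SE 0.043, adjusted p = 1.64e-09). Of 16889 genes tested, 52.6% were called, 27.1% higher and 25.5% lower, and 74.6% had groups that did not overlap, so neither a call nor separate groups set a gene apart here. The median log2 fold change of all genes tested was 0.03. KRT7, KRT8 and KRT18 carried the epithelial marker level, which summed to between 1109 and 1253 CPM, whereas KRT19, CDH1 and EPCAM did not exceed 0.0940 CPM. Luminal urothelial markers (UPK1A, UPK2, UPK3A, KRT20, GATA3) summed to between 0.305 and 0.894 CPM, with UPK3A at 0. Leukocyte markers (PTPRC, CD3E, CD14, CD68) summed to at most 0.701 CPM, fibroblast markers (COL1A1, COL1A2, PDGFRA) to between 0.871 and 3.45 CPM, and erythroid markers (HBB, HBA2) to at most 2.89 CPM. Endothelial markers (PECAM1, CDH5, VWF) summed to 0.635 and 0.395 CPM in siControl and to 2.37 and 10.6 CPM in siNSUN2, with PECAM1 at 0 in every library. The part of these markers in the results below was not tested.

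The 6 metallothionein members lie in 1 cluster on chromosome 16, with MT1G on the minus strand and the others on the plus strand. The coding sequences of 3 of them follow, because their closeness decides whether the counts of one can be told from those of another. They were read from GENCODE release 29 transcripts (GRCh38), 5′ to 3′, and capitals in MT1E and MT1X mark each base that differs from MT2A.
MT2A: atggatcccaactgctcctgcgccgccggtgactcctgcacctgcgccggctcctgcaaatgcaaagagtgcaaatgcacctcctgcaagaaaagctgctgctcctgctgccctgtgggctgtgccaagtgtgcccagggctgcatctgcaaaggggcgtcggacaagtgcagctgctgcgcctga
MT1E: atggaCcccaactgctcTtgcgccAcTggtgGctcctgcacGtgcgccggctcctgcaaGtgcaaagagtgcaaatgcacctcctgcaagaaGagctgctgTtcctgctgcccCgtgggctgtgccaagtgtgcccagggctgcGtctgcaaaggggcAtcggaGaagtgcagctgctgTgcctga
MT1X: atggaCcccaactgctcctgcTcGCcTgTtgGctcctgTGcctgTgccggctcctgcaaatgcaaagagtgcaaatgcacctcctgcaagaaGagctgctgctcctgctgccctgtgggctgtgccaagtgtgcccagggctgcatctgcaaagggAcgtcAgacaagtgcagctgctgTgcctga
Each ran to 186 bases with the stop codon and held 20 cysteine codons among 61. MT1E and MT1X each differed from MT2A at 14 bases (92.5% identity). Over all pairs of the 6 members, identity ran from 88.7% between MT1F and MT1X to 95.2% between MT1G and MT2A. Stretches shared with transcripts of other genes were searched for in the longest coding transcript of each member. For MT1E and MT1X, with 381 and 138 coding bases, that is not the form shown above, and their other forms were not searched. In the transcripts searched, MT1E, MT1F, MT1G, MT1M and MT2A shared no stretch of 150 bases, the length of 1 read. Stretches of 50 bases were shared for 3.6% to 14.3% of their positions. MT1X was the exception. Of its stretches of 150 bases, 44.5% also lay in AC026461.1 (ENSG00000259827), a gene annotated over it on the same strand, whose row held 0 counts in every library. The annotation behind the deposited counts therefore held this gene. Its release, and how reads lying in both genes were counted, are unknown, so the level of MT1X is uncertain.

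The promoter table from RefSeq (GRCh38.p14) held 4 of the 8 members, MT1X, MT2A, MTF1 and SLC30A1. The 250 bases before the start site are shown for 3 of these, since they differ in the core of the metal response element. Capitals mark matches to TGCACNC or TGCGCNC on either strand, and overlapping matches were kept. MT2A lies at chr16:56608334-56608583 on the plus strand, MT1X at chr16:56682220-56682469 on the plus strand and SLC30A1 at chr1:211579162-211579411 on the minus strand.
MT2A: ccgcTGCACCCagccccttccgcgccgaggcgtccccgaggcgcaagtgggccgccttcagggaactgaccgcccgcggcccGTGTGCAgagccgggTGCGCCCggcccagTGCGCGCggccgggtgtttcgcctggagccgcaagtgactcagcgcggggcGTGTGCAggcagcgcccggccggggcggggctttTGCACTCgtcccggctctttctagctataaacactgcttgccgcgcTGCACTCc
MT1X: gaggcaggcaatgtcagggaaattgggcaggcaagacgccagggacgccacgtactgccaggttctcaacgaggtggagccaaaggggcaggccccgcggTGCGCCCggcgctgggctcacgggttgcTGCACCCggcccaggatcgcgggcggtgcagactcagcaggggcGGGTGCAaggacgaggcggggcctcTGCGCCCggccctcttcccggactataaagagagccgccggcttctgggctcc
SLC30A1: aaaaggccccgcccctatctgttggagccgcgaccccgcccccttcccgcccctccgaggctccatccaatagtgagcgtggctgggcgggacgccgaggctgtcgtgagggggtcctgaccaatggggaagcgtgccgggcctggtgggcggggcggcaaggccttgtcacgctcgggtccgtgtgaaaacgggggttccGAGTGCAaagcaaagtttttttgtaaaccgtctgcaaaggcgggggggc
The MT2A window held 7 matches, 5 on the gene's strand and 2 on the opposite strand. The MT1X window held 4 and the SLC30A1 window 1, whereas none was found in the MTF1 window (chr1:37859593-37859842, minus strand). Of 35116 promoter windows of the same length, 24.8% held at least 1 match, 0.37% at least 4 and 0.0313% at least 7. MT1H and MT1B, metallothioneins outside the 8 genes, held 8 and 3. A match is a string of letters and not a measured binding site.

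**Figure D1:**
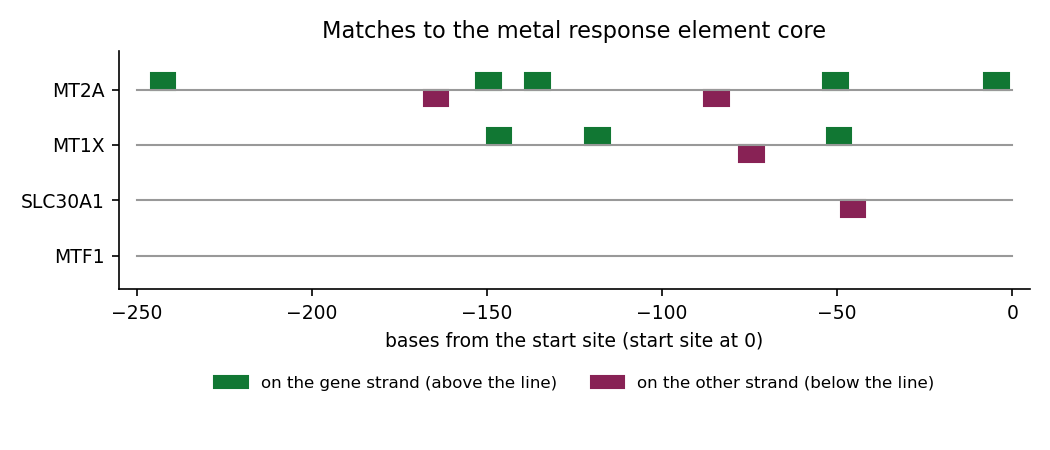
Positions of matches to the metal response element core in the 250 bases before the start site (horizontal axis, bases from the start site), with 1 line per promoter and the strand of each match marked. MT2A carries 7 matches, MT1X 4, SLC30A1 1 and MTF1 0.

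After NSUN2 knockdown the zinc sensor, the exporter and the abundant metallothioneins were higher. MTF1 and SLC30A1 rose to 1.41 and 1.80 times their control level, and MT1E rose to 2.00 times its control level. MT2A, the most abundant member, rose to 1.23 times on the same scale, but its direction reversed when trends on GC content were removed. Of the 8 genes, 7 passed the filter on low counts, of which 4 were called higher, 0 lower and 3 neither. Beside that count stand 52.6% of all genes called, 27.1% higher and 25.5% lower.

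**Figure D2:**
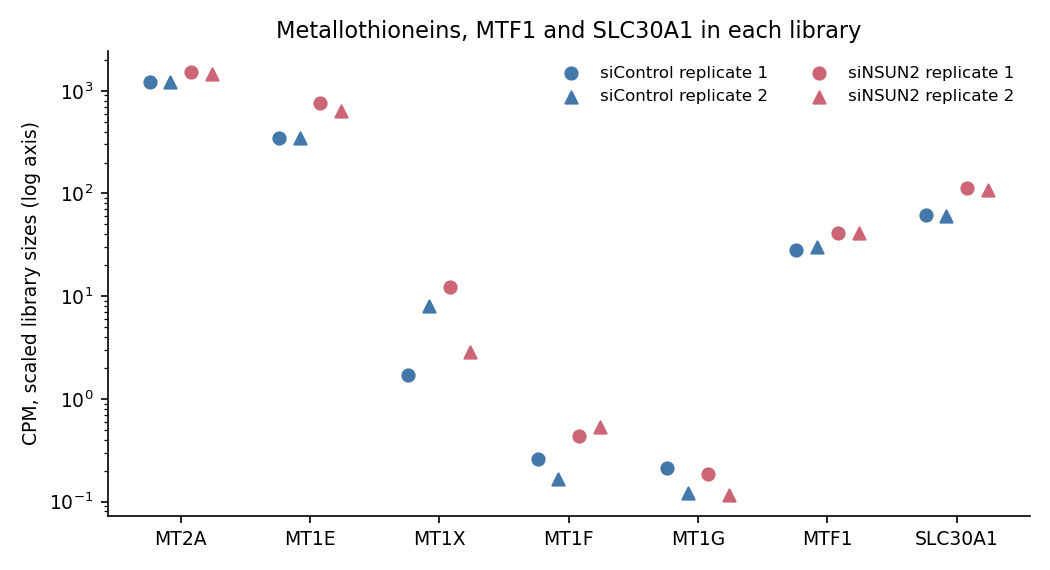
CPM of each member in each library (logarithmic axis), with siControl and siNSUN2 libraries as separate points and 2 per group. The siNSUN2 points of MT2A, MT1E, SLC30A1 and MTF1 lie above both siControl points, as do those of MT1F, which was not called. Those of MT1X and MT1G overlap with siControl, and MT1M, with 1 count in all, is not drawn. With GC trends removed, MT2A is lower in siNSUN2.

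MTF1 (ENSG00000188786, chromosome 1), the sensor, stood at 28.2 and 30.3 CPM in siControl replicates 1 and 2 and at 41.4 and 40.8 CPM in siNSUN2 replicates 1 and 2. Both knockdown libraries lay above both controls, and the gap was wider than the spread within either group. The means were 29.2 ± 1.48 and 41.1 ± 0.443 CPM (SD, n = 2 each), a log2 fold change of 0.49 (SE 0.054, 95% interval 0.37 to 0.61, adjusted p = 5.32e-05 by edgeR's quasi-likelihood test with Benjamini-Hochberg adjustment). A log2 fold change at least this high was found for 22.2% of all genes tested. A processed pseudogene, AL929472.4, is annotated on the opposite strand, and the strand setting of the counting is not known. The 3′ UTR of MTF1 holds the word ACCCTA 1 time in 5569 bases, and none of the other 7 members holds it in the annotated 3′ UTR. Among 12346 genes with a searchable 3′ UTR, 20.7% hold this word, and their median log2 fold change was −0.16, against 0.09 for genes without it. Of 2917 genes whose 3′ UTR lies within a factor of 2 of the length of that of MTF1, 43.6% hold the word. The medians with and without the word were not matched for 3′ UTR length or GC content, and an effect of the word was not tested.

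SLC30A1 (ENSG00000170385, chromosome 1), the exporter of zinc from the cytosol, stood at 62.3 and 59.7 CPM in the controls and at 112 and 108 CPM after knockdown. The groups were far apart relative to the difference between replicates, with means of 61.0 ± 1.83 and 110.0 ± 2.95 CPM (SD, n = 2 each). Its log2 fold change was 0.85 (SE 0.044, 95% interval 0.75 to 0.95, adjusted p = 5.19e-07), a value reached or passed by 10.4% of all genes tested. The ratio of SLC30A1 to MTF1 counts was 2.21 and 1.97 in siControl and 2.71 and 2.65 in siNSUN2, and both siNSUN2 ratios lay above both siControl ratios. MTF1 and SLC30A1 kept their direction and their call under all 19 alternatives run, with log2 fold changes from 0.37 to 0.60 for MTF1 and from 0.80 to 1.11 for SLC30A1.

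MT2A (ENSG00000125148), the main metallothionein of many human cell types, stood at 1217 and 1213 CPM in the controls and at 1527 and 1465 CPM after knockdown. The means were 1215 ± 2.54 and 1496 ± 44.3 CPM (SD, n = 2 each), and the groups did not overlap. The log2 fold change was 0.30 (SE 0.041, 95% interval 0.21 to 0.39, adjusted p = 2.16e-04), and 31.9% of all genes tested had a value at least as high. With loess trends on GC content and transcript length removed it became −0.18 (adjusted p = 0.00179), and with the trend on GC content alone −0.26 (adjusted p = 1.52e-04). With the trend on length alone it was 0.24 (adjusted p = 0.00205). The longest coding transcript of MT2A is 63.0% GC, the highest of the 8 members, against 38.0% for SLC30A1, 46.7% for MTF1 and 53.5% for MT1E. The trends were removed by the longest coding transcript of each member, which for MT1E has 729 bases, 381 of them coding. That MT1E form is not the one whose coding sequence is shown above.

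MT1E (ENSG00000169715), a cytosolic zinc-binding isoform, stood at 347 and 344 CPM in the controls. After knockdown it stood at 752 CPM in siNSUN2 replicate 1 and at 631 CPM in replicate 2. The 2 knockdown libraries differed from each other more than the controls did, yet both were far above them. The means were 346 ± 2.53 and 692 ± 85.4 CPM (SD, n = 2 each), a log2 fold change of 1.00 (SE 0.096, 95% interval 0.73 to 1.27, adjusted p = 0.00161). A value at least this high was found for 7.48% of all genes tested. Without siControl replicate 2, the deepest library, the log2 fold change was 0.97 and the call was lost (adjusted p = 0.0725). It was 0.93 with trends on GC content and length removed (adjusted p = 1.14e-05).

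**Figure D3:**
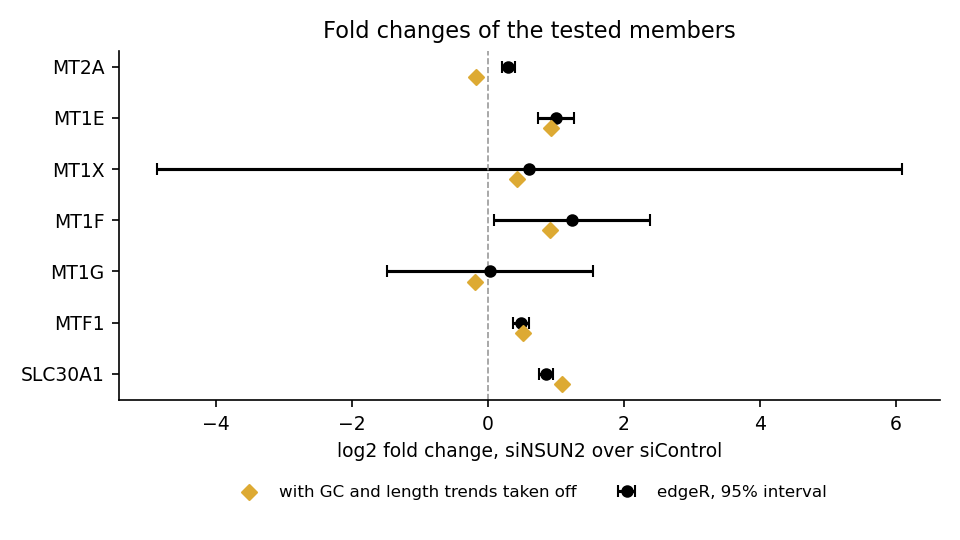
Log2 fold change of siNSUN2 over siControl for the 7 members tested (horizontal axis), with 95% intervals, beside the value with trends on GC content and length removed. SLC30A1, MTF1 and MT1E stay above 0 in both, MT2A moves from 0.30 to −0.18, and the interval of MT1X runs from −4.88 to 6.10.

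MT1X (ENSG00000187193), another cytosolic isoform, stood at 1.72 and 8.03 CPM in siControl replicates 1 and 2 and at 12.2 and 2.86 CPM in siNSUN2 replicates 1 and 2. The libraries of a group thus differed by 4.67 times in siControl and 4.26 times in siNSUN2, and the groups overlapped. The 2 high values belonged to the 2 deeper libraries, and the lower of them was 2.80 times the higher of the other two. Among 11706 genes with an average log2 CPM of at least 1, only 24 (0.205%) had both deeper libraries at least 2 times above both shallower ones, and 31 (0.265%) differed at least 4-fold between the libraries of both groups. The log2 fold change of 0.61 carried a standard error of 1.360 (95% interval −4.88 to 6.10, adjusted p = 0.776). No difference in MT1X between the groups could be detected, and the interval includes changes in both directions larger than that of any other member. The part of the overlapping annotation in these values was not tested.

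MT1F (ENSG00000198417) and MT1G (ENSG00000125144), 2 further isoforms, were near the limit of detection. MT1F had 11, 35, 40 and 18 counts in siControl replicates 1 and 2 and siNSUN2 replicates 1 and 2, or 0.259, 0.165, 0.436 and 0.526 CPM. Its groups did not overlap, at 0.212 ± 0.0667 and 0.481 ± 0.0638 CPM (SD, n = 2 each), and its log2 fold change of 1.24 missed the threshold (SE 0.506, 95% interval 0.09 to 2.39, adjusted p = 0.0682). It passed with limma-voom (1.34, adjusted p = 0.021) and with all libraries thinned to the shallowest total (1.87, adjusted p = 0.0216). It did not pass with DESeq2 (1.21, adjusted p = 0.167) or with GC and length trends removed (0.91, adjusted p = 0.179). MT1G had 9, 26, 17 and 4 counts in the same order and overlapping groups, with a log2 fold change of 0.03 (95% interval −1.49 to 1.54, adjusted p = 0.981). Its interval spans both a loss and a gain of more than 1 on the log2 scale, so these depths leave its change unmeasured. MT1M (ENSG00000205364), an isoform named in the same cluster, had 1 count in siNSUN2 replicate 1 and 0 counts elsewhere, which allows up to 0.0706 and 0.0141 CPM in the siControl libraries and 0.0876 CPM in siNSUN2 replicate 2 (3 counts, counting error only). It was not tested.

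Per kilobase of the longest coding transcript, MT2A was the highest member in siControl at 1546 ± 3.23 CPM per kilobase, followed by MT1E at 474 ± 3.47 (SD, n = 2 each). Next in siControl came SLC30A1 at 11.1 ± 0.333, MT1X at 9.06 ± 8.29 and MTF1 at 3.67 ± 0.186 CPM per kilobase. MT1X could not be placed among these beyond its spread, and its level is uncertain given the overlapping annotation. MT1F and MT1G stood at 0.307 and 0.266, within their spread of each other. The order was the same after knockdown, with MT2A at 1903 ± 56.4, MT1E at 949 ± 117, SLC30A1 at 20.1 ± 0.538, MT1X at 14.0 ± 12.3 and MTF1 at 5.15 ± 0.0555 CPM per kilobase. With the shortest coding transcript in its place, MT2A still led MT1E, at 2091 against 1041 in siControl and 2575 against 2084 CPM per kilobase in siNSUN2, but MT1G stood above MT1F in siControl (0.548 against 0.509).

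As counted, the metallothionein pool consisted almost wholly of MT2A and MT1E. Together they held 99.4% to 99.9% of the counts of the 6 metallothionein members in each library. MT2A held 77.7% and 77.5% of them in siControl and 66.6% and 69.8% in siNSUN2, while MT1E held 22.2% and 22.0% in siControl and 32.8% and 30.1% in siNSUN2. Both knockdown libraries thus had a larger part from MT1E than either control. All these shares include the counts of MT1X, whose level is uncertain. Of the 150-base stretches of its longest coding transcript, 44.5% also lie in AC026461.1. The ratio of MT1E to MT2A counts was 0.284 ± 0.00149 in siControl and 0.462 ± 0.0434 in siNSUN2 (SD, n = 2 each). The ratio was not tested in a model across genes, and for 2 libraries against 2 an exact two-sided permutation test of a single value cannot give a p below 0.333.

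The 6 metallothionein members summed to 1567 and 1565 CPM in siControl and to 2292 and 2099.6 CPM in siNSUN2, with means of 1566 ± 0.734 and 2196 ± 136 CPM (SD, n = 2 each). As a share of all counts before scaling this was 0.157% and 0.154% in siControl and 0.227% and 0.214% in siNSUN2. MT2A, whose direction turned with the GC correction, makes up most of this sum, to which no such correction was applied. The sum also holds the uncertain counts of MT1X. Per count of MTF1, the metallothionein members had 55.6 and 51.7 counts in siControl and 55.4 and 51.5 in siNSUN2. The groups overlapped, and the libraries with the same replicate number gave nearly equal values. No GC correction was applied to this ratio either. With GC and length trends removed, the log2 fold change was −0.18 for MT2A, 0.93 for MT1E and 0.52 for MTF1.

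**Figure D4:**
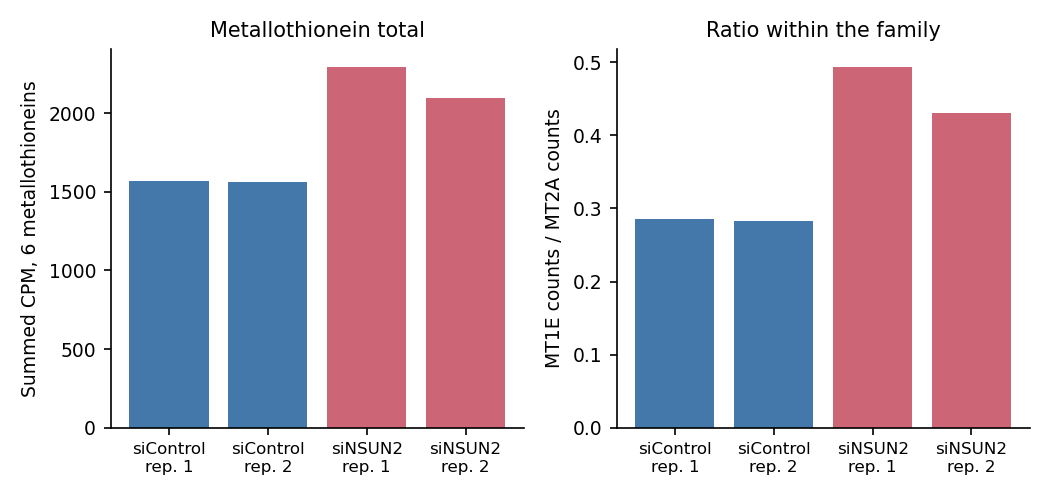
Summed CPM of the 6 metallothionein members in each library (left), and the ratio of MT1E to MT2A counts in each library (right). The sums are 1567 and 1565 CPM in siControl and 2292 and 2099.6 CPM in siNSUN2, without a GC correction, and the ratio is 0.286 and 0.283 in siControl and 0.493 and 0.431 in siNSUN2.

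Metallothionein genes and pseudogenes outside the 8 members added little. Of 15 named, 14 had a row and 3 of these (MT1A, MT1DP and MT1HL1) had 0 counts in every library, while only MT1P3 and MT2P1 passed the filter. MT1P3, a pseudogene, stood at 0.306 and 1.04 CPM in siControl and at 1.01 and 5.37 CPM in siNSUN2, with overlapping groups (log2 fold change 2.12, adjusted p = 0.343). It became 0.52 without siNSUN2 replicate 2 and 3.33 without siControl replicate 2. MT2P1, a pseudogene related to MT2A, stood at 12.4 and 2.95 CPM in siControl and at 6.98 and 7.19 CPM in siNSUN2. Its log2 fold change of −0.09 (adjusted p = 0.958) became 1.20 without siControl replicate 1 and −0.83 without siControl replicate 2, so 1 control library decided its direction. The coding genes MT1B and MT3 and the MT1L row stayed below 0.5 CPM in every library, with the highest value of 0.414 CPM for MT1B in siNSUN2 replicate 1, where it had 38 counts against 0 in siNSUN2 replicate 2. MT1H (2 counts) and MT3 (4 counts) were seen in siNSUN2 replicate 1 only, and MT1CP had 1 count there. MT1XP1 had 3 to 19 counts, MT1P1 1 to 10, MT1JP 0 to 3 and MT4 0 to 2.

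Other members of the exporter family SLC30, with the vesicle zinc transporter TMEM163, had calls in both directions. Of 10 genes, 7 were tested, of which 1 was called higher, 1 lower and 5 neither, and their median log2 fold change was 0.09, against 0.03 for all genes, of which 52.6% were called, 27.1% higher and 25.5% lower. SLC30A7, which loads zinc into the early secretory pathway, stood at 34.2 and 38.0 CPM in siControl and at 49.6 and 50.6 CPM in siNSUN2 (log2 fold change 0.47, adjusted p = 1.01e-04). SLC30A9, a mitochondrial zinc transporter, fell from 98.8 and 95.8 CPM to 71.8 and 70.3 CPM (−0.45, adjusted p = 1.64e-05). With GC and length trends removed, 4 of the family were called higher and SLC30A9 fell by 0.24. In that fit, 3844 of all 16286 genes tested were called higher and 3874 lower.

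The SLC39 importers bring zinc into the cytosol. Of 14 genes, 11 were tested, and 5 rose, 1 fell and 5 did not pass (median 0.10). Among all genes tested, 52.6% were called, 27.1% higher and 25.5% lower. SLC39A13, an intracellular carrier of the secretory pathway, rose from 24.4 and 24.7 CPM to 52.5 and 47.9 CPM (log2 fold change 1.04, adjusted p = 7.01e-07), but to a log2 fold change of only 0.47 with GC and length trends removed. SLC39A7, which releases zinc from the endoplasmic reticulum, rose by 0.49 (158 and 155 CPM against 228 and 212 CPM), and by 0.31 with those trends removed. SLC39A14, a plasma membrane importer of zinc and of iron and manganese, rose by 0.32 (145 and 142 CPM against 184 and 174 CPM). SLC39A8, its close relative, fell by 0.68, from 33.9 and 32.6 CPM to 22.1 and 19.2 CPM (adjusted p = 4.96e-05). The 2 related importers thus changed in opposite directions.

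Copper also binds metallothioneins, and of 12 copper handling genes 5 rose, 4 fell and 3 did not pass (median 0.17). Beside this stand 27.1% of all genes called higher and 25.5% called lower. SLC31A2, a copper transporter of internal membranes, rose by 0.77, from 7.13 and 7.75 CPM to 13.1 and 12.3 CPM (adjusted p = 7.96e-05). CCS, the copper chaperone of superoxide dismutase, stood at 13.6 and 13.7 CPM in siControl and 20.9 and 21.1 CPM in siNSUN2 (0.61, adjusted p = 3.01e-05). SCO2, an assembly factor of cytochrome c oxidase, stood at 10.1 and 9.53 CPM in siControl and 16.7 and 14.3 CPM in siNSUN2 (0.66, adjusted p = 2.29e-04). The calls of CCS and SCO2 were lost with GC and length trends removed, at 0.10 (adjusted p = 0.267) and 0.06 (adjusted p = 0.574). Among those that fell, ATP7A, the copper-exporting ATPase, went from 29.4 and 31.1 CPM to 17.2 and 15.2 CPM (−0.89, adjusted p = 7.20e-06). COX17, which hands copper to cytochrome c oxidase, went from 26.2 and 27.0 CPM to 14.9 and 14.5 CPM (−0.86, adjusted p = 3.04e-06). COX11, a further assembly factor of that enzyme, fell by 0.43, and by 0.14 with the trends removed.

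Of 12 other genes linked to MTF1 or to metal and oxidative load, 5 rose, 1 fell and 6 did not pass (median 0.29). SLC39A10, which did not pass, was counted both here and among the SLC39 importers, and the direction expected of each gene was not considered. The share called among all genes was 52.6%, with 27.1% higher and 25.5% lower. FTH1, the heavy chain of the iron store ferritin, rose by 0.80, from 449 and 487 CPM to 808 and 822 CPM (adjusted p = 1.03e-06). GCLM, a subunit of the enzyme that limits glutathione synthesis, rose by 0.32, from 107 CPM in both controls to 134 CPM in both knockdown libraries, and by 0.59 with GC and length trends removed. HMOX1, heme oxygenase 1, stood at 112 and 113 CPM in siControl and 139 and 137 CPM in siNSUN2 (0.30, adjusted p = 1.78e-04), a call lost with GC and length trends removed (adjusted p = 0.976). TXNRD1, thioredoxin reductase 1, stood at 739 and 731 CPM against 689 and 651 CPM (−0.13, adjusted p = 0.0248). Its call was lost without a low-count filter and without siNSUN2 replicate 2, and its direction turned, to 0.01, with the trends removed.

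Genes known to be induced by glucocorticoid, with the gene of the receptor itself, reached a median of 0.58 on the log2 scale, the highest of the 5 lists plotted. The lists were chosen with earlier results of these data known, so this rank is not independent of them. Of 11 genes, 10 were tested, and 7 rose, 0 fell and 3 did not pass, beside 52.6% of all genes called and 27.1% called higher. SGK1, a kinase that regulates sodium transport, rose by 1.63, from 47.8 and 50.6 CPM to 149 and 157 CPM (adjusted p = 4.06e-08). PER1, a circadian regulator, rose by 1.44, from 14.3 and 13.7 CPM to 40.0 and 35.5 CPM, and by 0.86 with GC and length trends removed. DUSP1, a phosphatase of MAP kinases, rose by 1.23, from 119 and 126 CPM to 282 and 293 CPM. FKBP5 and KLF9, also on this list, had overlapping groups, and the receptor gene NR3C1 had a log2 fold change of −0.08 (adjusted p = 0.158).

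**Figure D5:**
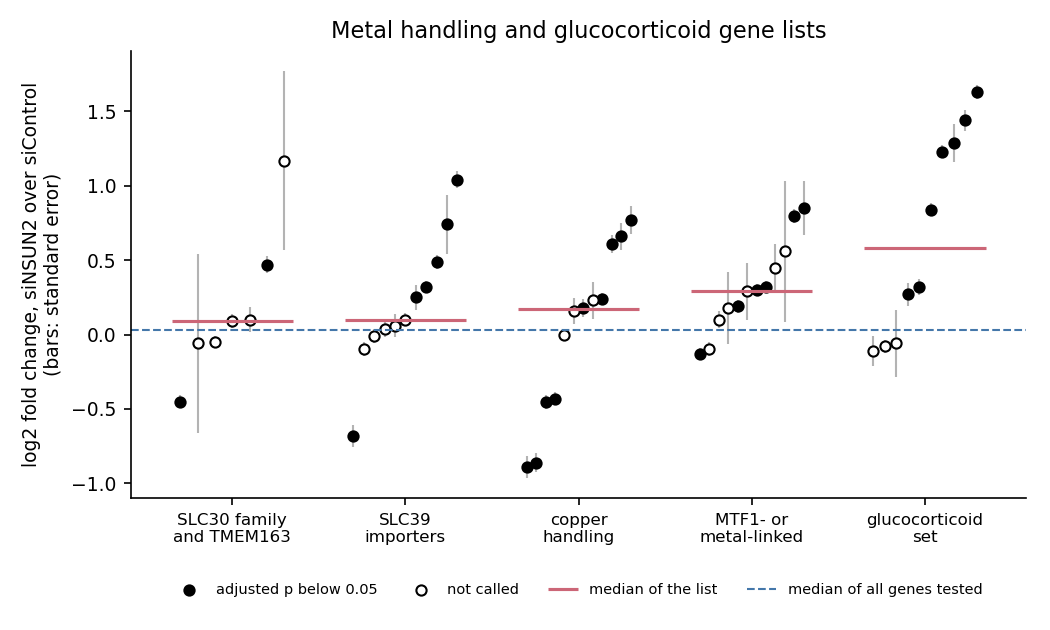
Log2 fold change of each tested gene in 5 lists (vertical axis, bars are standard errors), with filled points for adjusted p below 0.05. The red line marks the median of each list, from 0.09 for the SLC30 family and TMEM163 to 0.58 for the glucocorticoid set, and the dashed line the median of all genes tested, 0.03.

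Genes beside the metallothionein cluster on chromosome 16 moved in both directions. On one side, NUDT21, a pre-mRNA cleavage factor, fell from 423 and 427 CPM to 259 and 246 CPM (log2 fold change −0.75, adjusted p = 6.98e-07), and OGFOD1, a ribosomal protein hydroxylase, fell by 0.48, and these became −0.48 and −0.30 with GC and length trends removed. BBS2, a component of the cilium coat complex and next to the cluster, stood at 53.0 and 51.9 CPM against 56.0 and 53.1 CPM and was not called (0.06, adjusted p = 0.321), although it was with GC and length trends removed (0.16, adjusted p = 0.0168). On the other side, NUP93, a nuclear pore protein, fell by 0.33 (adjusted p = 0.00138). HERPUD1, an endoplasmic reticulum stress gene further along, rose by 1.70, from 76.2 and 76.7 CPM to 246 and 251 CPM.

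The 5 genes outside the family whose profile over the 4 libraries lay closest to the mean profile of the 5 metallothioneins tested were TRAPPC1, NEURL4, COMMD3, ARL2 and ASL. Their root mean square distances on the log2 scale ran from 0.023 to 0.051. TRAPPC1, for example, stood at 37.9, 44.5, 75.0 and 52.5 CPM in siControl replicates 1 and 2 and siNSUN2 replicates 1 and 2. COMMD3 and ARL2 were called higher, and TRAPPC1, NEURL4 and ASL were not called. That mean profile gives equal weight to each member and so carries the spread of MT1X. It carries equally that of MT1F and MT1G, which were near the limit of detection.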

How the data were processed

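The authors deposited 1 table of unnormalized counts, 1 row per Ensembl gene and 1 column for each library. HISAT2 and HTSeq were used with the build hg19, per the submitters' processing notes. Their versions, the annotation and the strand setting were not given in these sources. Libraries came from a stranded mRNA kit, sequenced as pairs of 150-base reads, per the labels' protocols. Sample titles gave the groups and replicate numbers.

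All 62893 genes were filtered on low counts, and the 16889 kept entered 1 fit. It used edgeR 4.0.16 (R 4.3.3) and its quasi-likelihood F-test with robust dispersions, TMM scaling and filterByExpr on the groups, without a block. The test was two-sided, with Benjamini-Hochberg adjustment over 16889 genes and a threshold of 0.05. Genes kept by the filter held 99.96% of the counts. A log2 fold change above 0 means higher in siNSUN2, with standard errors derived from the F statistic and 95% intervals from its degrees of freedom. CPM values use scaled library sizes. The procedure was tested on simulated data. The 8 members and the gene lists were chosen with earlier results of these data known. Named in the text are the members, NSUN2, every other metallothionein row with counts, up to 3 called genes per direction with the smallest p in each other list, and 5 genes of closest profile (average log2 CPM of at least 2). The flanking genes, FKBP5, KLF9 and NR3C1 were added after their values were seen. Coding sequences, GC content and 3′ UTRs came from GENCODE release 29 on GRCh38 through gene IDs, and promoters from RefSeq, so no coordinate was carried between builds. Alternatives used DESeq2 1.42.0, limma 3.58.1 (voom), other scalings and filters, thinning, loess offsets on GC content and length (span 0.3), a replicate block, and each library left out. Offsets on GC content or length alone were added after seeing the data.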

Additional observations from a re-analysis of the deposited data

How the results depend on the processing

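MTF1 and SLC30A1 kept direction and call under all 19 alternatives run on them. MT1E kept its direction under 19 and its call under 18; with 1 library left out it ran from 0.87 to 1.13, and at 0.97 without siControl replicate 2 it was not called. A group reduced to 1 library was assumed there to vary like the other group. Of the members, 1 was called lower with offsets on GC content and length, with these plus the replicate block, and with GC content alone: MT2A, at −0.18, −0.18 and −0.26. The median of all genes shifted by 0.054 and 0.072 with the first and the last of these, and by at most 0.067 in size under any other. MT1F passed with limma-voom (1.34) and after thinning (1.87), and leaving out 1 library gave 0.85 to 1.46. It was 1.21 with DESeq2, 0.91 with GC and length offsets and 0.83 with GC content alone, without a call. MT1G turned to −0.09 with DESeq2, −0.14 with the replicate block, −0.19 with GC and length offsets, −0.33 with these and the block, −0.22 with GC content and −0.05 with length alone. MT1X ran from −0.80 to 2.13 with 1 library left out, reversing without siControl replicate 1 (−0.13) and without siNSUN2 replicate 1 (−0.80). The cause of these changes was not tested.

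The labels do not say that equal replicate numbers mark a shared batch, and with 2 pairs the correlation of deviations (0.18 over 11635 genes) does not decide it. With the replicate number as a block, 5027 genes were higher and 4788 lower, against 4573 and 4307, and 4 members were higher. The block gave 1 other metallothionein higher (MT1P3, 2.13), 2 importers lower and 2 genes of the MTF1-linked list lower.

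Of the other metallothioneins, 1 was called higher without a low-count filter, with GC and length offsets plus the block, and at most when 1 library was left out; the range was 0 to 1 in both directions. MT2P1 turned to 0.90 with limma-voom, 0.20 with the block, 0.08 with length alone and 1.20 without siControl replicate 1, and ran from −0.83 to 1.20 with 1 library left out. Of the SLC30 family, 4 rose with GC and length offsets, with these plus the block, and with GC content alone, and 1 to 2 rose with 1 library left out. Of the importers, 2 fell with each of those corrections, and 1 to 2 fell with 1 library left out. In the MTF1-linked list 0 fell without a low-count filter and with GC and length offsets with or without the block, and 0 to 2 with 1 library left out, when 0 to 1 of the glucocorticoid set fell. Beside these list counts, 3844 of all 16286 genes tested were higher and 3874 lower with GC and length offsets. These were 4111 and 4178 with the block added, and 3975 and 3840 with GC content alone. Without a low-count filter, 4617 of 31369 genes were higher and 3933 lower. TXNRD1 turned to 0.01 with each GC correction. With GC content alone HMOX1 turned to −0.01 and SCO2 to −6.1e-05. At depths of 33633249 to 215936965 counts, MT1F, MT1G and MT1M stayed too low for a change of moderate size to be measured.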
